A study of Rattus norvegicus with 6 samples.

Results

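The endothelial identity genes Kdr, Flt1, Pecam1, Cdh5, Vwf, Tek, Tie1, Emcn, Cldn5 and Erg were examined in lung tissue of control rats and of rats with bleomycin-induced pulmonary fibrosis (PF model). Members were taken by their gene name in the deposited table of linear isoforms, and 8 of the 10 genes had rows, with 53 of the 70376 transcripts in the table. No row carried the name Pecam1 or Cldn5, so these 2 genes were not analysed here. All animals were Sprague–Dawley rats, 7 weeks old at the start. The PF model rats received bleomycin once into the trachea at 7 mg/kg, the control rats received the same volume of saline, and lung tissue was taken 28 days later. Each of the 3 rats per group gave 1 library of RNA depleted of ribosomal RNA. The tissue was not sorted, so fewer endothelial cells and less RNA per endothelial cell cannot be told apart in these levels.

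Endothelial cells line every blood vessel, and in the lung they form the capillary network through which gas is exchanged. They are recognised by receptors for vascular endothelial growth factor (VEGF) and for angiopoietins, by the cadherin and other proteins of their junctions and surface, by von Willebrand factor in their storage granules, and by transcription factors of the ETS family. Kdr (VEGFR2) is the main signalling receptor for VEGF-A on these cells, and Flt1 (VEGFR1) is a related receptor that binds VEGF-A tightly and can act as a decoy. Tek (Tie2) is the angiopoietin receptor, Tie1 is its partner, Cdh5 (VE-cadherin) holds neighbouring cells together, Emcn (endomucin) is a surface sialomucin, and Erg is an ETS factor that maintains endothelial gene expression.

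The stretches just upstream of 3 of these genes are shown because ETS factors such as Erg recognise a core of the letters GGAA. Kdr is the gene on which the isoform results turn, Flt1 is its relative, and Emcn held the most matches among the 6 members with such a sequence at hand. The sequences are the 250 bases before the RefSeq start of each gene in build GRCr8, on the strand of the gene, with GGAA and its reverse complement TTCC in capitals.
Kdr, chr14:32571813-32572062, plus strand: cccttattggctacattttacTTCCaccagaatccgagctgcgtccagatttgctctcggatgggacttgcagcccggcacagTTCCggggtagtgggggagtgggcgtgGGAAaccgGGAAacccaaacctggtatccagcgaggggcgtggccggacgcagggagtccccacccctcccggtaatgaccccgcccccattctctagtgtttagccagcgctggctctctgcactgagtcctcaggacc
Flt1, chr12:12333180-12333429, plus strand: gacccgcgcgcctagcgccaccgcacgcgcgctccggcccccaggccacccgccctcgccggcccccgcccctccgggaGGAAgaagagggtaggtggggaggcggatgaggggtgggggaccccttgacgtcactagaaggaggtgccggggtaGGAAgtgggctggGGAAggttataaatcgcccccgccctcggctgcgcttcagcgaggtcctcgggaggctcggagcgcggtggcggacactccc
Emcn, chr2:228564289-228564538, plus strand: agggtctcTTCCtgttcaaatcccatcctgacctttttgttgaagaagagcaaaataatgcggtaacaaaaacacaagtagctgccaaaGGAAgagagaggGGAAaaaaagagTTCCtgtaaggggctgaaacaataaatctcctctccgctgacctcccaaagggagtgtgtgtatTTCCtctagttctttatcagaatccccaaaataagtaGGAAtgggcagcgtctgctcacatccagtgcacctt
The window of Kdr held 4 matches, that of Flt1 3 and that of Emcn 6. Windows were also at hand for Tie1 with 4 matches, Erg with 2 and Cldn5 with 0. At least 1 match stood in 93.2% of the 33469 rat promoter windows of this length, with a median of 3, and 34.7% held as many as that of Kdr and 9.27% as many as that of Emcn. These counts describe letters, not bound sites.

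The summed level of none of the 8 endothelial genes differed between the groups beyond the spread between rats. The unit was FPKM (fragments per kilobase of transcript, scaled to the mapped fragments of the library), summed over all rows of a gene. A gene was called by the threshold values of the study, group means at least 1 log2 unit apart and a p no higher than 0.05, applied here to the unadjusted p. Differences were tested with limma on log2(FPKM + 1) over the 19645 gene names above 0 in at least 3 samples, of 21655 listed. Shares of all gene names given below are shares of these 19645. None of the 8 genes was called, and none reached an unadjusted p of 0.05, against 1.52% of all gene names called (298) and 4.91% with such a p. Of all gene names, 0.662% were called as higher in the PF model (130, and 196 of 337 calls on TPM, where each library is rescaled to the same total), and 0.0102% had an adjusted p below 0.05, which 0 of the 8 genes had. The values of the groups overlapped for all 8 genes, while 10.7% of all gene names had groups that did not overlap. The median log2 fold change of the 8 genes was -0.02, beside -0.01 over all gene names.

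Among the VEGF receptors, the Kdr sum was 76.49, 73.33 and 77.18 FPKM in the control rats and 77.67, 56.0 and 80.1 FPKM in the PF model rats. The control rats lay close together, whereas PF model rat 2 was lowest of all 6 and the other two model rats were highest. The fold change was -0.10 on the log2 scale (SE 0.14, 95% interval -0.45 to 0.24, limma adjusted p = 0.951). Without PF model rat 2 it was 0.06, with the opposite sign, and on the annotated Kdr transcripts alone it was -0.57 (limma adjusted p = 0.972). Flt1 was at 25.68, 22.12 and 21.6 FPKM in control and 24.26, 20.88 and 25.89 FPKM in PF model rats, so that the groups covered nearly the same range. Its log2 fold change was 0.03 (SE 0.11, 95% interval -0.23 to 0.30, limma adjusted p = 0.99).

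For the angiopoietin receptor Tek, control rats had 66.52, 56.45 and 61.8 FPKM and PF model rats 59.62, 57.58 and 62.91 FPKM. Its partner Tie1 had 44.62, 42.97 and 35.22 FPKM in control and 47.97, 39.83 and 41.71 FPKM in PF model rats. The model values of Tek all lay within the control range, and those of Tie1 reached slightly higher. The log2 fold change was -0.03 for Tek (95% interval -0.24 to 0.17) and 0.08 for Tie1 (95% interval -0.21 to 0.36). The limma adjusted p was 0.977 for Tek and 0.958 for Tie1.

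At the junctions and surface, Cdh5 was at 73.9, 72.18 and 60.17 FPKM in control and 70.05, 57.3 and 73.35 FPKM in PF model rats, a log2 fold change of -0.04 (95% interval -0.35 to 0.27, limma adjusted p = 0.986). Emcn was at 31.62, 32.34 and 28.04 FPKM in control and 30.59, 26.02 and 23.92 FPKM in PF model rats. Emcn had the smallest p of the 8 genes, with 2 of the 3 model rats below every control rat and the third inside the control range. Its log2 fold change was -0.19 (SE 0.11, 95% interval -0.46 to 0.08) with an unadjusted p of 0.134 and a limma adjusted p of 0.933. Without PF model rat 3 it was -0.11, and without PF model rat 1 it was -0.29.

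Vwf, the carrier of clotting factor VIII that also binds platelets, was at 179.4, 87.85 and 77.21 FPKM in control and 152.3, 149.7 and 117.4 FPKM in PF model rats. Control rat 1 was the highest of all 6, and the other two control rats were below every model rat. The log2 fold change of 0.38 had the widest interval of the 8 genes (SE 0.32, 95% interval -0.39 to 1.14, limma adjusted p = 0.933). Without control rat 1 it was 0.75, without control rat 2 it was 0.24 and without control rat 3 it was 0.14, and in none of these was Vwf called. The transcription factor Erg was at 56.22, 56.17 and 58.99 FPKM in control and 52.56, 57.16 and 61.8 FPKM in PF model rats. Its group means were 57.12 ± 1.61 FPKM (SD, n = 3) and 57.18 ± 4.62 FPKM (SD, n = 3), the closest pair among the 8 genes, and the 95% interval of its log2 fold change was -0.20 to 0.19 (limma adjusted p = 1.0).

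**Figure D1:**
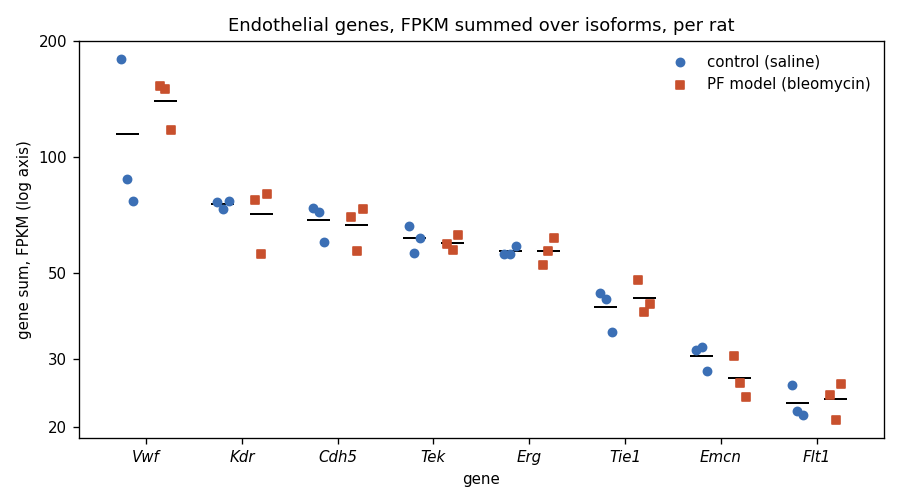
FPKM summed over the isoforms of each endothelial gene (log axis) in the 3 control rats (circles) and the 3 PF model rats (squares), with group means as black lines. The groups overlap for all 8 genes, with PF model rat 2 at 56.0 FPKM for Kdr and control rat 1 at 179.4 FPKM for Vwf standing away from their groups.

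The order of the levels, from FPKM, which are scaled by length, was the same in both groups, being Vwf, Kdr, Cdh5, Tek, Erg, Tie1, Emcn and Flt1. The ranges of Kdr and Cdh5, of Cdh5 and Tek, and of Tek and Erg overlapped in both groups. Compared within each rat, Kdr was above Cdh5 in 5 of 6 rats, Cdh5 above Tek in 4 and Tek above Erg in 6. Of these pairs, only Tek and Erg kept their order in every rat. Emcn and Flt1 overlapped in the PF model rats but not in the control rats. The places of Erg and Cdh5 rest partly on rows of other classes, for Erg those assembled inside its introns. Rows that were not on the same strand with exonic overlap gave 44.8% of its control sum, and 24.2% of that of Cdh5. Counting only same-strand exonic rows, Erg was at 31.21, 31.07 and 32.25 FPKM in control rats and 29.86, 30.91 and 34.75 FPKM in PF model rats, below every Tie1 value. Cdh5 was then at 58.4, 53.58 and 44.34 FPKM in control and 54.04, 41.34 and 63.02 FPKM in PF model rats, and was above Tek in 1 of 6 rats. By coverage, the sums stood on between 2366 estimated reads of 150 bases for Emcn and 77906 for Vwf per library.

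The Kdr sum was not called, but the estimated level of 1 of its isoforms was far higher in the PF model. Kdr lies on the plus strand of chromosome 14 from 34727623 to 34787183 in the coordinates of the files, for which no build was given in the sources used here, and it had 8 rows. MSTRG.11310.3, an assembled transcript that shares splice junctions with the annotated gene (class j), was at 0.308, 1.08 and 0.678 FPKM in control rats and 10.11, 9.79 and 13.36 FPKM in PF model rats. All model rats lay above all control rats, with a gap of several times the highest control value. The log2 fold change was 2.85 (SE 0.22) on the log2(FPKM + 1) scale, and the log2 ratio of the means was 4.01. The unadjusted p of 1.69e-05 and this ratio passed the thresholds of the study, and the limma p adjusted over all 64867 isoforms was 0.0504, just over 0.05. It fell below 0.05 when low transcripts were removed (0.0387), on TPM (0.0498) and among assembled transcripts alone (0.0424), and it was 0.939 at its highest over 12 alternatives, in every one of which the isoform passed the thresholds of the study. The exact two-sided permutation p was 0.1, the smallest that 3 rats against 3 allow. Its coverage came to 93.7, 301 and 217 estimated reads in control and 3216, 2826 and 4032 in PF model rats.

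As a share of the Kdr sum, MSTRG.11310.3 held 0.403%, 1.47% and 0.878% in control rats and 13.0%, 17.5% and 16.7% in PF model rats. The difference was 14.8 percentage points (SE 1.44, 95% interval 11.1 to 18.5), with an unadjusted limma p of 0.000123 and an adjusted p of 0.203 over 46946 shares. The share was thus similar in all 3 model rats, although rat 2 had the lowest Kdr sum.

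The transcript has the same start and end as the main annotated Kdr transcript. It has 29 exons and 6561 bases against 30 exons and 5986 bases, so it is 575 bases longer with 1 exon fewer. The table gives no positions of single exons, so where they differ was not determined. The annotated transcript ENSRNOT00000071405 and the assembled MSTRG.11310.1 and MSTRG.11310.2 have the same ends, length and number of exons, and the division of reads among such near-identical models is an estimate. The level of MSTRG.11310.3, which has the same ends, also rests on such a division. Its estimated reads come from the same division, and reads over single splice junctions were not examined.

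ENSRNOT00000071405 was at 21.84, 28.62 and 21.53 FPKM in control and 22.19, 6.32 and 26.33 FPKM in PF model rats. MSTRG.11310.1 was at 25.29, 26.07 and 22.78 FPKM in control and 22.29, 14.65 and 21.38 FPKM in PF model rats, and its groups did not overlap although its unadjusted p was 0.0921. MSTRG.11310.2 was at 16.74, 0 and 16.1 FPKM in control and 9.95, 11.45 and 10.2 FPKM in PF model rats. The 3 varied separately, with MSTRG.11310.2 listed at 0 in control rat 2, where ENSRNOT00000071405 was at its highest. Together they had 63.87, 54.69 and 60.41 FPKM in control and 54.43, 32.42 and 57.91 FPKM in PF model rats, and these ranges overlapped because control rat 2 lay below PF model rat 3.

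Leaving MSTRG.11310.3 out, the rest of Kdr came to 76.18, 72.25 and 76.5 FPKM in control and 67.56, 46.21 and 66.74 FPKM in PF model rats. The means were 74.98 ± 2.37 FPKM and 60.17 ± 12.1 FPKM (SD, n = 3 each), and no model rat reached the lowest control rat. This remainder was formed after the isoform values had been seen and is given with no test. Leaving the isoform out takes 9.79 to 13.36 FPKM from the model rats and 0.308 to 1.08 FPKM from the control rats. The separation thus follows in part from that choice, since the full Kdr sums overlapped. MSTRG.11310.5, with 27 exons, was at 4.59, 7.86 and 6.29 FPKM in control and 4.73, 3.75 and 2.82 FPKM in PF model rats. Its unadjusted p was 0.0428 (log2 fold change -0.60, limma adjusted p = 0.945), its groups overlapped and the ratio of its means was too small for a call. The other 3 rows of Kdr were not called and their groups overlapped. They were the annotated ENSRNOT00000085089 (30 exons, 4029 bases), MSTRG.11310.8 and the intronic MSTRG.11311.1. ENSRNOT00000085089 was near 0, with means of 0.095 FPKM in control and 0.089 FPKM in PF model rats.

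**Figure D2:**
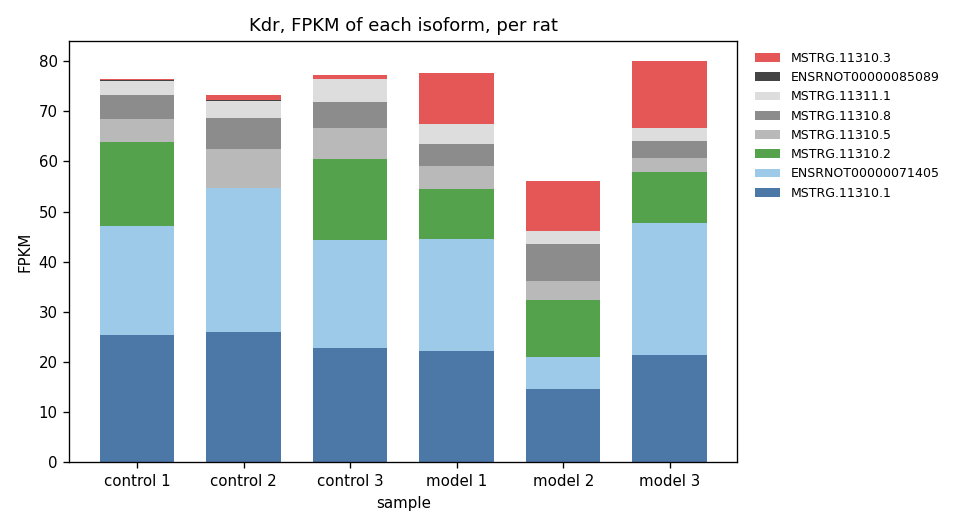
Stacked bars of the FPKM of each of the 8 Kdr isoforms in each rat, with the full bar giving the gene sum. MSTRG.11310.3 (top segment, red) is barely visible in the control rats and at 9.79 to 13.36 FPKM in the PF model rats, while the height of the bars overlaps between the groups.

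Of the 53 isoforms, 52 had enough values above 0 to be tested, and 1, MSTRG.11310.3, was called, against 2.98% of all isoforms and 1.22% called as higher in the PF model. The groups of 4 did not overlap, against 10.4% of all isoforms, and 0 had an adjusted p below 0.05 in limma (0.0277% of all), with 2 at an unadjusted p of at most 0.05 (4.53% of all). Of the 53 shares, 1 reached an unadjusted p of 0.05, against 3.99% of all shares, 5 had groups apart, against 9.26%, and 0 had an adjusted p below 0.05, against 0.0107%. A single call is too few to set the endothelial genes apart from the table as a whole. An isoform called with groups apart and a share moved by at least 10 percentage points, in a gene whose sum was not called, was found for 609 of 44321 isoforms (1.37%), in 527 of 10140 gene names (5.2%).

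In Tek and Emcn a single annotated transcript held most of the sum. ENSRNOT00000032248 held 79.2% ± 1.23 (SD, n = 3) of Tek in control and 79.8% ± 4.59 in PF model rats, and ENSRNOT00000035700 held 79.7% ± 0.644 of Emcn in control and 80.3% ± 5.43 in PF model rats. ENSRNOT00000001248 of Flt1 had 86.2% ± 2.92 in control and 79.9% ± 11.8 in PF model rats, where rat 2 alone was at 66.8%. ENSRNOT00000026643 of Vwf had 76.2% ± 8.11 and 77.7% ± 4.19, while its FPKM of 146.2, 70.43 and 51.6 in control and 121.5, 109.2 and 94.54 in PF model rats carried the spread of the Vwf sum. The shares of these 4 main transcripts thus differed by less than the larger SD of each, with unadjusted limma p between 0.359 for that of Flt1 and 0.849 for that of Tek. The next largest were the assembled MSTRG.20896.2 of Emcn with 13.7% ± 0.873 and 12.9% ± 5.78, MSTRG.26784.5 of Vwf with 11.7% ± 6.8 and 7.19% ± 0.84, MSTRG.28404.2 of Tek with 10.0% ± 0.0632 and 10.2% ± 1.86, and the intronic MSTRG.8572.1 of Flt1 with 9.82% ± 1.28 and 10.2% ± 3.36.

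In Cdh5, Tie1 and Erg the sum was divided more evenly. The assembled MSTRG.17221.1, with 10 exons, held 52.6% ± 2.15 of Cdh5 in control and 54.2% ± 3.47 in PF model rats, more than the annotated ENSRNOT00000086995 with 17.4% ± 6.89 and 21.1% ± 8.15 or the intronic MSTRG.17224.1 with 10.9% ± 1.86 and 9.41% ± 3.99. In Tie1, ENSRNOT00000093097 held 37.8% ± 5.82 and 40.3% ± 7.67, followed by the assembled MSTRG.28820.2 with 22.9% ± 7.35 and 19.1% ± 4.94, MSTRG.28820.7 with 16.0% ± 2.8 and 14.0% ± 2.65, and MSTRG.28820.1 with 10.0% ± 2.31 and 11.2% ± 2.25. In Erg, ENSRNOT00000078818 held 24.2% ± 2.41 and 27.0% ± 2.87, and the assembled MSTRG.7502.6 held 11.4% ± 1.54 and 11.6% ± 0.121. ENSRNOT00000078425 of Erg held 11.5%, 12.1% and 11.9% in control against 9.45%, 9.09% and 11.4% in PF model rats. The latter was 1 of 3 Erg shares whose groups were apart, by at most 1.85 percentage points on average, with an unadjusted limma p of 0.206. The remaining isoforms with groups apart were the intronic MSTRG.17223.1 of Cdh5, with 4.97 to 6.31 FPKM in control and 3.66 to 4.76 FPKM in PF model rats, and MSTRG.26784.1 of Vwf, with 0 to 5.1 FPKM in control and 5.48 to 7.71 FPKM in PF model rats. Neither reached an unadjusted p of 0.05.

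**Figure D3:**
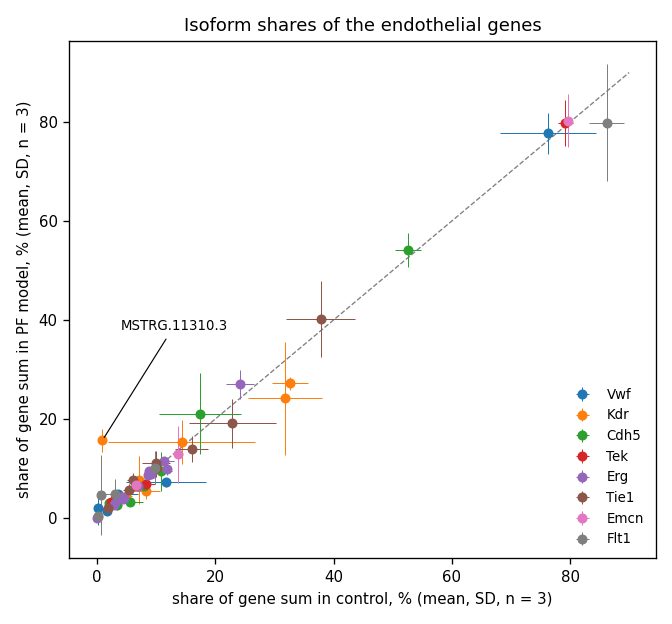
Mean share of the gene sum in control rats (x axis, %) and PF model rats (y axis, %) for the 53 isoforms of the 8 endothelial genes, with bars for the SD over 3 rats and a dashed line of equal shares. Most isoforms lie along the line, and MSTRG.11310.3 of Kdr, at 0.917% in control and 15.7% in the PF model, lies far above it.

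The ligands and co-receptors of these receptors were taken as a list of 13 genes, of which 13 were tested and 0 were called. Their median log2 fold change was -0.07. Vegfa, the ligand of Kdr and Flt1, was at 156.2, 136.1 and 122.3 FPKM in control and 149, 134.1 and 103.6 FPKM in PF model rats. Nrp1, a co-receptor for VEGF, was at 86.43, 86.85 and 86.33 FPKM in control and 79.19, 71.42 and 77.31 FPKM in PF model rats. All model rats were below all control rats, with a log2 fold change of -0.19 and a limma adjusted p of 0.933 (unadjusted p = 0.0376), the only p of at most 0.05 in the list. Nrp1 was also the 1 gene of the 13 with groups apart. Over all gene names, 10.7% had groups apart and 4.91% had such an unadjusted p. Ptprb, a phosphatase that acts on Tek, had group means of 74.1 and 73.2 FPKM. Angpt1, the activating ligand of Tek, was at 24.9, 22.94 and 28.84 FPKM in control and 23.2, 24.45 and 14.21 FPKM in PF model rats, so 1 model rat was low and the groups overlapped.

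Other endothelial genes were also not called. Of 35 further genes of endothelial cells, 35 were tested and 0 called, with a median log2 fold change of -0.03 and 20 genes below 0. The lists for capillary aerocytes (8 tested), general capillaries (6), arteries (8), veins (5) and lymphatics (7) likewise held 0 called genes, with medians between -0.07 for aerocytes and 0.12 for arteries. Nr2f2, a transcription factor of venous identity, was at 44.59, 48.71 and 46.93 FPKM in control and 37.81, 40.76 and 42.77 FPKM in PF model rats (log2 fold change -0.21, unadjusted p = 0.0351, limma adjusted p = 0.933), which is too small a ratio for a call. The most abundant aerocyte genes, Kitlg, with 64.5 ± 1.84 FPKM and 58.5 ± 4.52 FPKM (SD, n = 3), and Ednrb, with 34.2 ± 2.88 FPKM and 32.6 ± 7.67 FPKM, had groups that overlapped. Fibin was the 1 aerocyte gene with groups apart, at 7.73, 7.16 and 8.9 FPKM in control and 7.07, 7.09 and 4.61 FPKM in PF model rats (log2 fold change -0.32, limma adjusted p = 0.933). Over all gene names, 10.7% had groups apart. The 8 aerocyte genes went both ways, 5 with a fold change below 0 and 3 above, up to 0.25. Of the 5 venous genes 3 were below 0 and 2 above, up to 0.33.

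Genes of other cell types were examined for the makeup of the tissue. Lists for alveolar epithelium, fibroblasts, smooth muscle, pericytes, leukocytes, platelets, mesothelium and erythroid cells held 0 called genes. The 12 alveolar epithelial genes all had fold changes above 0, with a median of 0.14, and their summed level was 5078 to 6999 FPKM in control and 5990 to 7557 FPKM in PF model rats. The fibroblast list summed to 383.1 to 418.2 FPKM in control and 444.7 to 513.1 FPKM in PF model rats, ranges that did not overlap. Of its 8 genes, 5 had a fold change above 0 and 3 below, Dcn (-0.13), Lum (-0.10) and Pdgfra (-0.06), and none was called. The collagen gene Col3a1 was the most abundant in that sum and weighs most in it. It was at 174, 177.9 and 153.6 FPKM in control and 188.5, 203.8 and 232.5 FPKM in PF model rats (log2 fold change 0.30, unadjusted p = 0.0366, limma adjusted p = 0.933). Platelets, which also hold Vwf, had list sums of 11.35 to 20.57 FPKM in control and 13.18 to 17.92 FPKM in PF model rats. The cardiac muscle list held the 1 called gene of all lists, Nppa, at 0.107, 0 and 0 FPKM in control and 0.168, 0.154 and 0.15 FPKM in PF model rats. These levels were near 0, and its limma adjusted p was 0.933. This was 1 call among 135 listed genes tested, against 1.52% of all gene names. The cardiac list summed to 6.877 to 11.54 FPKM in control and 6.577 to 27.89 FPKM in PF model rats. The part of these cell types in the endothelial values was not tested.

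**Figure D4:**
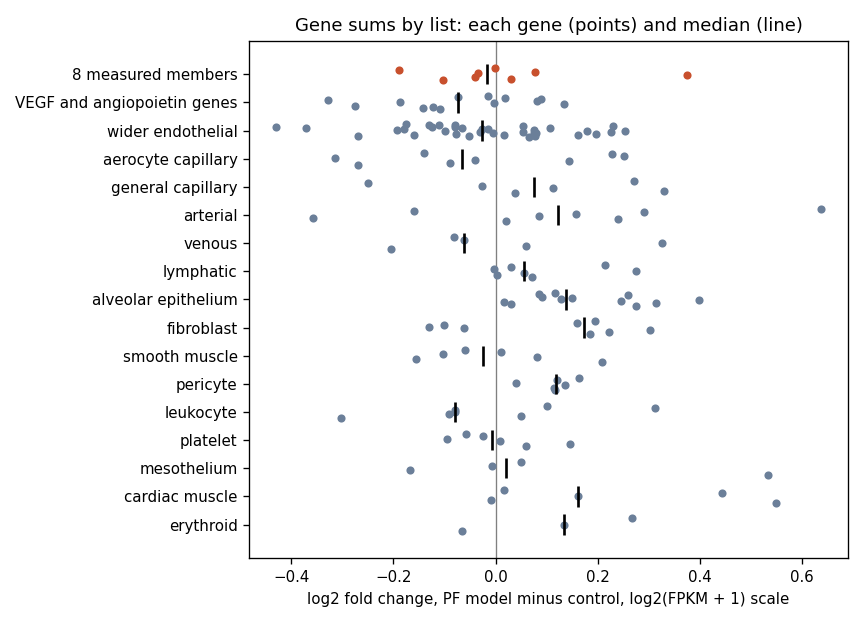
Log2 fold change (PF model minus control, log2(FPKM + 1) scale) of each tested gene by list, with the list median as a black line and the 8 endothelial genes in the top row in red. The medians of the endothelial lists lie between -0.07 and 0.12, and the endothelial gene farthest from 0 in the top row is Vwf at 0.38.

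Across the 6 rats, Cdh5 and Flt1 had the highest Pearson's r with Kdr among the members. Over 7 genes compared, Pearson's r was 0.703 for Cdh5 (permutation p = 0.0833, adjusted p = 0.292, Spearman's rho 0.371, p = 0.497) and 0.676 for Flt1 (permutation p = 0.0431, adjusted p = 0.292, rho 0.714, p = 0.136). Leaving out control rat 2 and PF model rat 2, the rats farthest from the median of Kdr, r was 0.293 for Cdh5 and 0.371 for Flt1. On FPKM these relations thus rest largely on those rats. None of the 7 had an adjusted p below 0.05, and r was between -0.239 for Vwf and 0.526 for Tek (rho 0.543) in the others. These values depend on the scaling, since on TPM without small RNA names r was 0.874 for Cdh5, 0.868 for Flt1, 0.83 for Tek, 0.775 for Erg, 0.662 for Tie1, 0.612 for Emcn and 0.232 for Vwf. With the same rats left out, r on that scaling was 0.793 for Cdh5 and 0.779 for Flt1. Within the groups, as deviations from group means on FPKM, r was 0.699 for Cdh5 and 0.756 for Flt1 (adjusted permutation p = 0.413 for each). Of the 35 further endothelial genes, the most alike by r were Podxl (0.957, rho 0.6), Ramp2 (0.844, rho 0.943) and Cd93 (0.825, rho 0.6). Their permutation p adjusted over the 35 was 0.462 for Podxl, 0.243 for Ramp2 and 0.462 for Cd93. Podxl, a surface sialomucin, was at 47.37, 48.83 and 46.62 FPKM in control and 47.68, 37.37 and 51.05 FPKM in PF model rats. As with Kdr, its lowest and highest values were those of PF model rats 2 and 3.

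Circular RNAs, which arise when a later exon is joined back to an earlier one, were listed for 3 of the genes. Of 5216 circRNAs, 17 were hosted by members, 2 by Flt1, 7 by Tek and 8 by Vwf. They held 93 back-splice reads in all, 42 in control and 51 in PF model rats, of 2037 to 2964 back-splice reads per library, and 8 of the 17 had a single read. With at least 10 reads required, 3 were tested with edgeR and 0 had an unadjusted p of at most 0.05, against 5.75% of the 226 circRNAs tested, and 0 by DESeq2. An adjusted p below 0.05 was found for 0 of the 3 and for 0.442% of all. The most abundant, circRNA56 of Flt1 (2 exons, chromosome 12 from 9061581 to 9062262, plus strand), had 4, 6 and 7 reads in control and 6, 8 and 8 in PF model rats (log2 fold change 0.39, edgeR adjusted p = 0.99). circRNA658 of Tek had 2, 2 and 0 reads in control and 4, 2 and 2 in PF model rats, and circRNA796 of Vwf had 3, 3 and 4 reads in control and 4, 1 and 0 in PF model rats. At this depth no difference in the circRNAs of these genes was detectable.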

How the data were processed

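Lung RNA of 3 control and 3 PF model rats was examined, grouped by the condition in the labels. After trimming by Cutadapt, reads were mapped by Bowtie2 and Tophat2 and assembled by StringTie, and the authors deposited FPKM for each merged transcript, estimated by StringTie and Ballgown. The processing notes also name HISAT2. Beside it stands a second deposited signal, the mean coverage per base, which is not scaled to depth. The deposited circRNA table holds back-splice read counts, unscaled, from Tophat-fusion and CIRCexplorer, and SRPBM, a normalized signal that was not used. The genome build was not given in the sources used here, and coordinates are those of the files. The columns of the 6 samples were all used as labelled.

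FPKM were summed per gene name, over all class codes. Features above 0 in at least 3 samples were tested with limma 3.58.1 (with trend, two-sided) in R 4.3.3 on log2(FPKM + 1), so fold changes of low transcripts are understated. Shares were percentages of the gene sum in genes with a sum of at least 1 FPKM in every sample, tested with limma. CircRNAs with at least 10 reads were tested with edgeR 4.0.16 (quasi-likelihood, TMM) and DESeq2 1.42.0. P values were adjusted by Benjamini-Hochberg over all features. Correlations were tested over all 720 pairings. Reads were estimated as coverage times length divided by 150 bases. Names of small RNA families held 34.18% to 46.44% of the summed FPKM per library. The fits were tested on simulated data. Promoter sequences are from RefSeq on GRCr8, a table used for sequences only, and 6 of the 10 genes matched.

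The members and lists were chosen with earlier results of these data known. The naming rule takes all members, isoforms with a mean share of at least 10% in a group or with a call, up to 4 genes per list (called genes, otherwise the most abundant), the 3 further endothelial genes most correlated with Kdr and the circRNAs of members. List genes and circRNAs not named in the text are given by counts and ranges. Isoforms with groups apart, MSTRG.11310.5, Fibin, Dcn, Lum, Pdgfra, Angpt1 and the sums formed within Kdr were named after their values were seen. Other pseudocounts, filters, scalings and tests were tried, with fits that left out each rat in turn or added the replicate number as a block. Restricting rows to same-strand exonic classes and isoforms to assembled transcripts was chosen after seeing the data. Nothing states how the rats relate beyond separate samples, so p values measure the spread between these samples. Other software was scipy 1.17.1, numpy 2.4.6, pandas 2.3.3 and matplotlib 3.10.9 under Python 3.11.15.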

Additional observations from a re-analysis of the deposited data

How the results depend on the processing

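None of the 8 gene sums was called under any of the alternatives run. The sign of small differences was not stable, and the cause was not tested. It reversed in 8 alternatives for Erg, 6 for Cdh5, 4 for Flt1, 3 for Tek, 2 for Tie1 and 1 each for Kdr and Vwf. Emcn kept its sign in all 18. Apart from the ranges with 1 rat left out, the values below are mostly those with a reversed sign. Leaving out 1 rat gave log2 fold changes from -0.195 to 0.0596 for Kdr, -0.0337 to 0.115 for Flt1, -0.133 to 0.0651 for Cdh5, -0.0943 to 0.0222 for Tek, -0.0243 to 0.142 for Tie1, -0.0581 to 0.0567 for Erg, 0.143 to 0.746 for Vwf and -0.285 to -0.114 for Emcn. On annotated transcripts alone it was -0.568 for Kdr, 0.195 for Tie1, -0.0832 for Flt1, 0.0105 for Cdh5 and 0.0334 for Erg. With the FPKM level of each library as a covariate it was -0.0178 for Flt1, -0.102 for Vwf, -0.0839 for Tie1 and 0.0542 for Erg. This covariate is the sum of the log2(FPKM + 1) values of gene sums up to their upper quartile, and is not sequencing depth. On TPM it was 0.0433 for Cdh5, 0.05 for Tek and 0.0829 for Erg, on TPM without small RNA names 0.013, 0.0198 and 0.0528 for the same genes, with upper quartile scaling 0.021 for Erg, and in same-strand exonic classes 0.00712 for Cdh5 and 0.0119 for Erg.

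MSTRG.11310.3 kept its direction and its call under all 12 alternatives, with a log2 fold change between 2.68 and 3.94, and its share difference had an adjusted limma p between 0.0838 and 0.923 over 9. The number of called member isoforms was 1 to 2 when a rat was left out. It was 2 without control rat 1 or model rat 1, through ENSRNOT00000017983 of Cdh5, and 2 without control rat 3, through MSTRG.26784.1 of Vwf. Over all isoforms, 2498 of 63737 were called without control rat 1 and 2186 of 63781 without model rat 1. Without control rat 3, 2109 of 63773 were called, against 1934 of 64867 with all rats. Shares with an unadjusted p of at most 0.05 numbered 1 to 2, with 2 without control rat 1. Without that rat 2195 of all 46767 shares had such a p in limma, against 1874 of 46946 with all rats. Member isoforms with an adjusted p below 0.05 were 1 when a mean FPKM of at least 1 was required, on TPM and among assembled transcripts alone, where fewer transcripts are tested in the first and last. Over all isoforms tested, 14 of 45808, 27 of 64867 and 11 of 39794 had such an adjusted p in these settings, in that order. The correlation with Kdr had 1 gene with an adjusted permutation p below 0.05 on TPM without small RNA names, Flt1 (r 0.868, adjusted p = 0.0389, rho 0.829, adjusted p = 0.18).

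Deviations from the group means correlated by 0.0667, 0.0275 and -0.0867 between rats of the same number. Between rats of different numbers the correlations ran from -0.137 to 0.104. With 3 rats per group these values cannot show whether the replicate numbers pair the rats. With the replicate block 312 gene names and 1943 isoforms were called, and 0 gene sums and 1 isoform of the members, and MSTRG.11310.3 had a log2 fold change of 2.85 with an adjusted limma p of 0.939. Over all gene names, calls were 84 with a mean FPKM of at least 1, 519 on annotated transcripts and 153 with the covariate of FPKM level, against 298. Isoform calls were 1066 with a mean FPKM of at least 1 and 1184 among assembled transcripts, against 1934. CircRNAs with an unadjusted p of at most 0.05 were 6 by DESeq2 and 24 without the filter, against 13. Depth limits the circRNAs, with at most 39 reads for any of those of the members.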
